A study of Mus musculus with 4 samples.

Results

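RBPJ peaks were examined at 8 genes of extracellular matrix turnover in alveolar macrophages (AMs), which reside in the airspace of the lung. The genes were the matrix metalloproteinase genes Mmp8, Mmp9, Mmp12, Mmp13, Mmp14 and Mmp19 and the inhibitor genes Timp2 and Timp3, taken by symbol from 21755 protein-coding genes. A peak or region was counted for a gene when it lay in the gene body, within 1 kb of a transcription start site (TSS), or had the gene as the nearest protein-coding TSS. Consensus regions were merged intervals with a peak of each library, and 11 of 25454 such regions belonged to 6 of the 8 genes. The series held 4 samples from WT AMs, sorted by FACS after bronchoalveolar lavage of 9-wk-old C57BL/6J mice, namely RBPJ replicates 1 and 2 and input replicates 1 and 2. HT-ChIPmentation, which joins chromatin immunoprecipitation to tagmentation on the beads, was run with an antibody to RBPJ. There was no second genotype or treatment. Whether replicates 1 and 2 are from separate mice is not given in the sources used here, so their differences show the spread of these libraries only.

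Matrix metalloproteinases are zinc endopeptidases that cleave collagens, elastin, gelatin and many non-matrix proteins. They are made as inactive proenzymes, and tissue inhibitors of metalloproteinases (TIMPs) block their active sites. In the lung, macrophage elastase is known for its part in emphysema models, and several secreted family members are encoded side by side in a single gene cluster. RBPJ is the DNA-binding factor of Notch signaling, and its core recognition sequence is TGGGAA. A RBPJ peak is a position of enriched DNA and not a measure of transcription.

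The sequence under the summits is shown first, for the strongest region of each gene that had one and for the promoter of Mmp8, which was added after its values had been seen because it was the only promoter region of the group. Each line gives the GRCm38 sequence 50 bp to either side of the summit in whichever library had the higher fold there, 5′ to 3′ on the plus strand, so that the Timp2 line runs against the direction of that gene. The label upstream refers to the TSS of the GENCODE basic set, and the Mmp9 window lies within a longer transcript of that gene. Capitals mark matches on either strand to 12 motifs that are described with the motif results.
Mmp8, promoter, chr9:7558335-7558435: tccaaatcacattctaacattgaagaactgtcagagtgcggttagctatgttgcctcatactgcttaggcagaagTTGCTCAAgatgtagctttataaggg
Mmp8, upstream, chr9:7556379-7556479: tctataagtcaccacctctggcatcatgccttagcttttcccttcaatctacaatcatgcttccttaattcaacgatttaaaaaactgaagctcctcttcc
Mmp12, upstream, chr9:7336832-7336932: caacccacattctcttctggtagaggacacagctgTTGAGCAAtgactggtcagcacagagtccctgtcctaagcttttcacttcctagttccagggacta
Mmp9, upstream, chr2:164943120-164943220: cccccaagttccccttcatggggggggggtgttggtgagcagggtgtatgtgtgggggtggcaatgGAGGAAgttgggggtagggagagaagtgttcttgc
Mmp14, intron, chr14:54442467-54442567: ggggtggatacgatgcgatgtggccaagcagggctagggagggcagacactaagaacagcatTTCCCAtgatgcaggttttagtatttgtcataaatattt
Mmp19, upstream, chr10:128780247-128780347: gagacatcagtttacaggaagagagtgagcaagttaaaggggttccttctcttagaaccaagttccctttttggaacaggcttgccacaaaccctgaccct
Timp2, upstream, chr11:118363394-118363494: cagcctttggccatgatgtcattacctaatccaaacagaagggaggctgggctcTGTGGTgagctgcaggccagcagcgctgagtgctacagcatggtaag
Of these 7 windows, that of Mmp14 held the RBPJ core, read as TTCCCA on the plus strand. The windows of the Mmp8 promoter and of Mmp12 each held a C/EBP-type sequence, that of Mmp9 a PU.1-type sequence within a G-rich run, and that of Timp2 a RUNX-type sequence. The windows upstream of Mmp8 and of Mmp19 held none of the 12.

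The lists behind these regions differed in length, with 106228 peaks in replicate 1 and 47224 in replicate 2, of which 26.0% and 66.3% overlapped a peak of the other library by at least 1 bp. Fold enrichment, the value of the peak caller, had a median of 4.06 and 4.35. Fold and −log10 p together return the number of fragments over a summit and the number expected from background (all peaks of replicate 1 and 99.99% of those of replicate 2 gave a whole number within 0.01 of the listed −log10 p). The median peak rested on 17 fragments in replicate 1 and 13 in replicate 2, and most peaks had an expected number of 2.94 and 1.99, respectively. Of 12 AM genes fixed as markers, 10 had a consensus region within 1 kb of a TSS, Marco and Krt79 being the others. The marker lists of other cells gave 1 of 10 neutrophil genes (S100a8), 0 of 8 T and B cell genes, 1 of 6 alveolar epithelial genes (Epcam) and 0 of 7 fibroblast genes, beside 33.7% of all protein-coding genes. By any of the 3 rules, all 12 AM genes had a consensus region, beside 45.0% of all protein-coding genes. So did 4 of 10 neutrophil genes (S100a8, Ltf, Csf3r and Cxcr2), 3 of 8 T and B cell genes, 1 of 6 alveolar epithelial genes and 2 of 7 fibroblast genes.

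The promoters of the 8 genes were compared first, to see where RBPJ lay relative to their starts. Mmp8 was the only gene with a consensus region within 1 kb of a TSS (1 of 8, 12.5%), beside 33.7% of all protein-coding genes. Gene bodies held a region in 4 of 8 genes (Mmp8, Mmp9, Mmp12 and Mmp14), beside 37.3%. The median gene body of the group was 14412 bp long, against 17414 bp for all protein-coding genes. By nearest TSS, 6 of 8 genes had a region (Mmp8, Mmp9, Mmp12, Mmp14, Mmp19 and Timp2), beside 40.5%. By any of the rules 6 of 8 had a region, beside 45.0%, and Mmp13 and Timp3 had none. With 8 genes, each gene moves these shares by 12.5 percentage points, and the list was chosen with earlier results known, so no test was made. In replicate 1 alone, 3 of 8 genes had a promoter peak (Mmp8, Mmp12 and Mmp14, beside 46.1% of all genes), 6 had a peak in the body (51.9%) and all 8 were nearest to a peak (59.6%). In replicate 2 alone these numbers were 1 (Mmp8, beside 37.5%), 6 (44.2%) and 7 (54.1%). The closest region of Mmp12 lay just outside the 1 kb limit, 1076 bp from a TSS. That of Mmp14 lay further off, 1815 bp from one, whereas the region of Mmp8 reached its TSS.

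**Figure D1:**
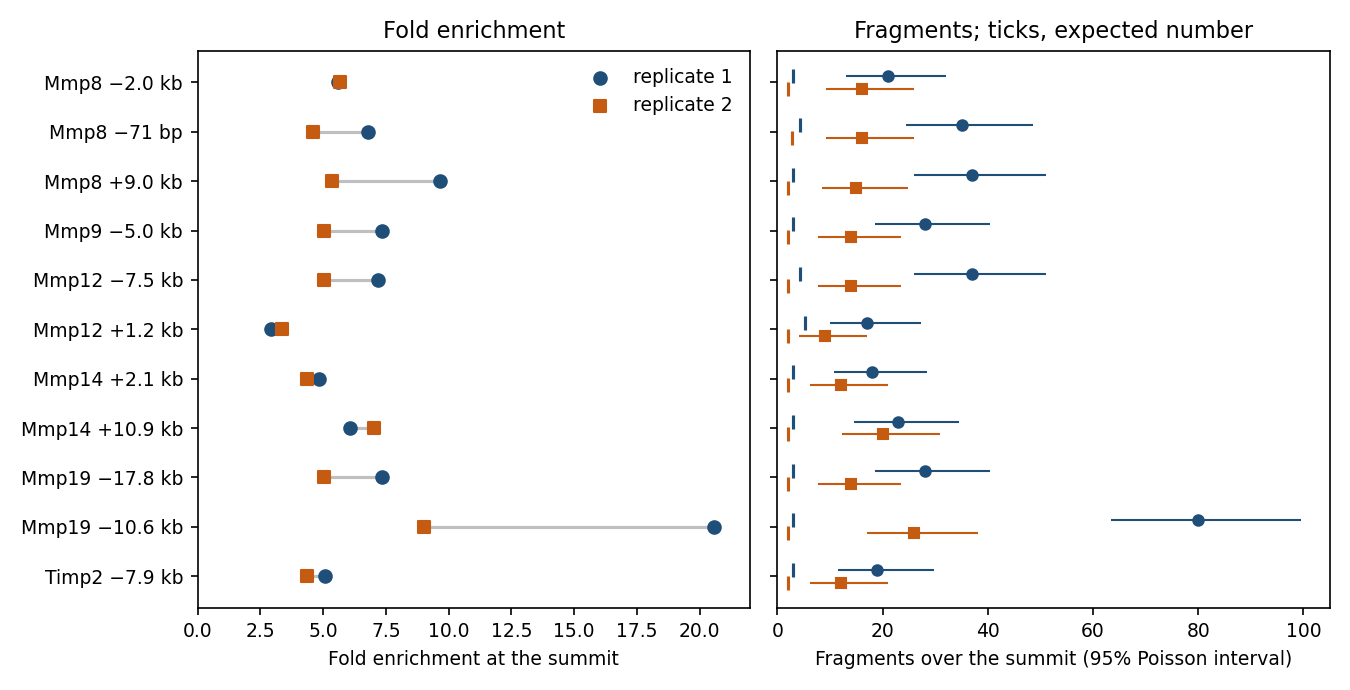
Fold enrichment at the summit (left, horizontal axis) and fragments over the summit with exact Poisson 95% intervals (right, horizontal axis) for the 11 consensus regions of the member genes, with replicate 1 as blue circles and replicate 2 as orange squares. Short ticks on the right mark the expected number of fragments, and the region at −10613 bp from Mmp19 stands out with 80 and 26 fragments.

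Mmp8 encodes the collagenase known from neutrophil granules, which cleaves fibrillar collagens, and the study counts it among the AM-core genes. By any of the 3 rules it had the most consensus regions of the group, 3. By nearest TSS it had 2, as did Mmp12, Mmp14 and Mmp19. The region at the start of Mmp8 covered chromosome 9 from 7557991 to 7558521, with the summit at −71 bp in replicate 1 and −349 bp in replicate 2. Replicate 1 gave it a fold of 6.79 and replicate 2 one of 4.59, with a −log10 q of 17.4 and 5.26. It rested on 35 fragments where 4.30 were expected and on 16 where 2.70 were expected. The summits lay 278 bp apart, so that this region was lost when summits had to lie within 100 bp. No member then kept a promoter region, beside 22.6% of all protein-coding genes.

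A region at −2027 bp from the Mmp8 TSS (7556344 to 7556727) was more even between the libraries, with a fold of 5.58 and 5.69 and summits 85 bp apart. The region highest in replicate 1 lay at the other end of the gene (7566583 to 7567801). Its replicate 1 summit was in coding exon 10 of 10, 9007 bp from the TSS. The summit of replicate 2, at 9104 bp, lay past the end of the coding sequence. The fold of the region was 9.64 and 5.36, on 37 and 15 fragments, and its −log10 q was 24.7 and 6.11. By distance this last region is assigned to the neighboring gene Mmp27, whose TSS lay 3933 bp beyond the summit. Replicate 1 had 8 more peaks in or nearest to Mmp8 that replicate 2 lacked, with folds from 2.71 to 4.82, among them 4 other peaks in the gene body. Replicate 2 had no peak of its own there.

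Mmp12 encodes macrophage elastase, and its strongest region lay upstream of the gene, on chromosome 9 from 7336438 to 7337773. The summit was at −7515 bp from the TSS, where the fold was 7.17 for replicate 1 and 5.02 for replicate 2, on 37 and 14 fragments. The other region lay in intron 1 (7345473 to 7345830), with its summit at 1213 bp. It was the weakest of the 11, with a fold of 2.92 and 3.35, a −log10 q of 2.92 and 1.85, and 9 fragments in replicate 2. The start of Mmp12 itself had peaks in replicate 1 alone, at −168 bp (fold 4.06) and at 120 bp (2.64). A further peak of replicate 1 at −12484 bp had a fold of 7.61 on 29 fragments without a counterpart in replicate 2, although 76.2% of the 719 replicate 1 peaks of that fold had one.

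Mmp13, whose product is another collagenase, lies at the left end of the same cluster and had no consensus region. The closest one was 63924 bp from its TSS. The single peak assigned to Mmp13 was found in replicate 1, at −19146 bp, with a fold of 3.81 on 14 fragments. Replicate 2 had no peak within 48974 bp of its start.

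The cluster that holds Mmp8, Mmp12 and Mmp13 was then described as a whole. It spans 427 kb of chromosome 9 from 7272514 to 7699585, from Mmp13 to Mmp7, with 9 protein-coding genes, all metalloproteinase genes, and the polymorphic pseudogene Mmp1a. It held 6 consensus regions, or 14.0 per Mb, beside 10.3 per Mb on chromosome 9 and 9.66 per Mb over all chromosomes used. All 6 lay in or upstream of Mmp12 or between Mmp10 and Mmp27, the last of the 6 inside Mmp8. The density of the cluster rests on these few regions and was not tested. When summits had to lie within 100 bp, the cluster held 4 regions, and all chromosomes held 14400 in place of 25454. Replicate 1 had 26 peaks in the cluster (60.9 per Mb, against 40.3 genome-wide) and replicate 2 had 9 (21.1 per Mb, against 17.9). Of the 26 peaks, 8 lay in Mmp12 or its 10 kb of upstream sequence and 14 between 10 kb upstream of Mmp8 and the end of Mmp27. For replicate 2 these stretches held 3 peaks each.

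From a point within Mmp12 onward, replicate 1 had no peak over 179.603 kb (7346353 to 7525955). That stretch takes in the rest of Mmp12, Mmp1b, the stromelysin gene Mmp3, Mmp1a and the stromelysin gene Mmp10. In replicate 2 it held 1 peak, in Mmp1a, with a fold of 3.68. The consensus region that ends the stretch (7525956 to 7526390) lay 23691 bp downstream of the Mmp10 TSS and 32413 bp upstream of that of Mmp8, with a fold of 5.58 and 5.02. Mmp27, next to Mmp8, had a peak at its start in replicate 1 alone (fold 4.57) and 3 more in its body, and none in its body in replicate 2. Mmp20, an enamel protease gene, and Mmp7, the matrilysin gene, had no peak within their bodies in either library. On either side of the cluster, Dcun1d5 and Tmem123 each had 2 consensus regions within 1 kb of a TSS.

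**Figure D2:**
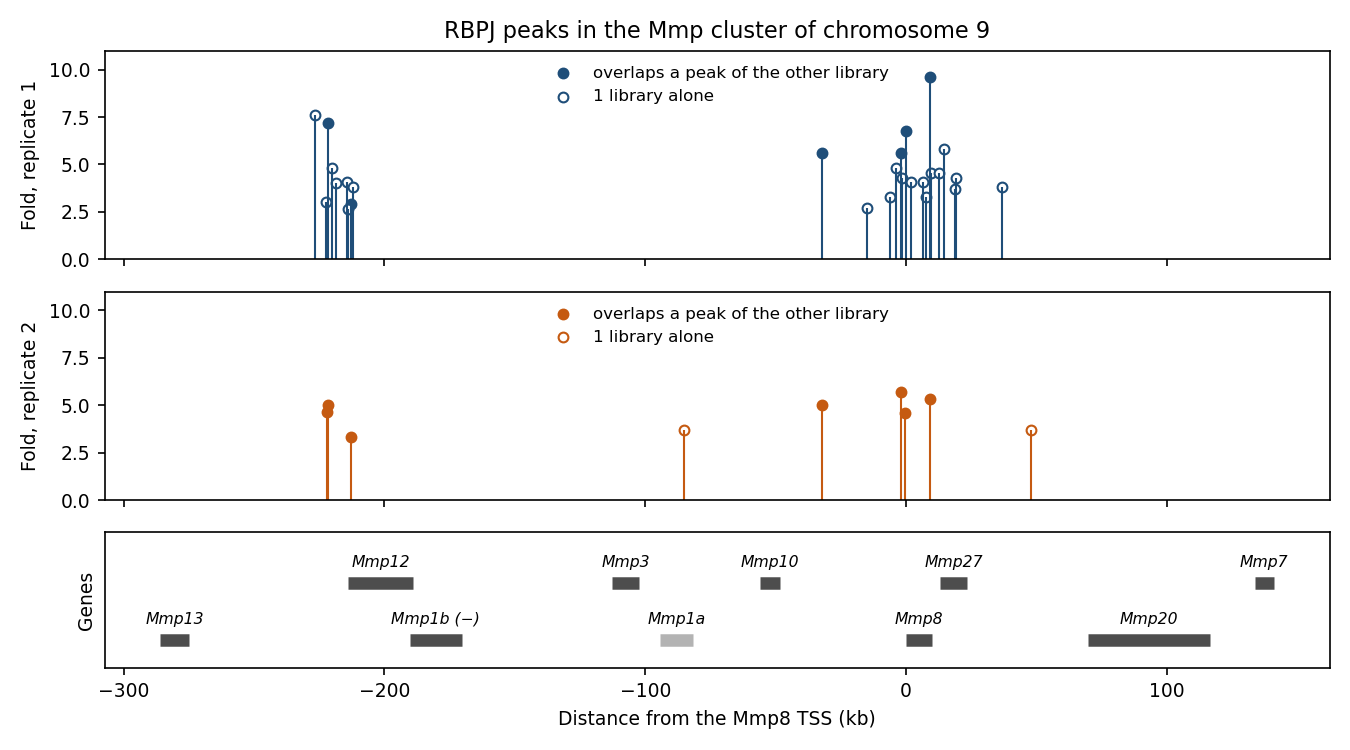
RBPJ peaks in the Mmp cluster, with fold enrichment on the vertical axes for replicate 1 (top) and replicate 2 (middle) against distance from the Mmp8 TSS in kb (horizontal axis). Filled points overlap a peak of the other library and open points do not, bars at the bottom are genes (gray for the pseudogene Mmp1a, a minus sign for the gene on the minus strand), and peaks of replicate 1 form 2 groups, at Mmp12 and from Mmp8 to Mmp27.

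Mmp9 encodes gelatinase B, which degrades denatured and basement membrane collagen. Its 1 region lay on chromosome 2 from 164942739 to 164943423, and had a fold of 7.36 (28 fragments) in replicate 1 and 5.02 (14 fragments) in replicate 2. The summit was at −5049 bp from the TSS of the basic transcript. It counts as gene body because a longer transcript of the comprehensive set starts further upstream and has the summit in its intron 1. Repeat or low-complexity sequence masked in the assembly took 48.5% of the bases within 50 bp of the summit. Each library had another peak further upstream that the other lacked, at −12201 bp in replicate 1 (fold 4.06) and −10716 bp in replicate 2 (3.68).

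Mmp14 encodes a membrane-anchored metalloproteinase that cleaves collagen and, together with TIMP2, activates the proenzyme of MMP2. It had 2 consensus regions on chromosome 14. The region from 54442440 to 54443057 had its summit 10884 bp from the TSS, in intron 9 of a longer transcript that runs past the end of the usual one. It was among the 3 of 11 that were higher in replicate 2, with a fold of 6.09 and 7.03 on 23 and 20 fragments and summits 26 bp apart. The region from 54433448 to 54433772, in intron 1, had a fold of 4.82 and 4.35. At the promoter, replicate 1 alone had a peak at −328 bp (fold 4.57, 17 fragments). A further consensus region at −5189 bp belonged by distance to Mrpl52, a mitochondrial ribosomal protein gene, with its summit at −486 bp from that gene's TSS (fold 8.11 and 6.27).

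Mmp19, a metalloproteinase gene outside the cluster, had the strongest region of the group. It covered 3229 bp of chromosome 10 from 128778733 to 128781961, upstream of the gene, with the summit of replicate 1 at −10613 bp and that of replicate 2 503 bp away. The fold was 20.6 in replicate 1 and 9.04 in replicate 2, at percentiles 99.9 and 96.6 of the lists. It rested on 80 fragments where 2.94 were expected (95% interval 63.4 to 99.6) and on 26 where 1.99 were expected (17.0 to 38.1). Replicate 1 called the region as 1 peak and replicate 2 as 3 peaks. The nearest TSS of another protein-coding gene was that of Tmem198b, 24073 bp away. In width the region stood at percentile 98.2 of all consensus regions and in lower fold, the lower value of the 2 libraries, at percentile 95.2.

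The other region of Mmp19, at −17811 bp (128772884 to 128773277), had a fold of 7.36 and 5.02, with summits 1 bp apart. All bases within 50 bp of its summit were masked as repeat sequence, which held for more than 50% of the bases in 7.69% of consensus regions. Of the 14 replicate 1 peaks assigned to Mmp19, 2 overlapped a peak of replicate 2. Between the region at −17811 bp and the gene, the highest replicate 1 peak that replicate 2 lacked was at −4197 bp (fold 7.36). Of the 861 replicate 1 peaks of that fold, 73.1% recurred. Within the gene, replicate 1 had peaks at 1261 bp (6.59) and at 2380 bp (2.71). Of the peaks with a rounded fold of 6.59, 5 of 13 recurred, which is too few to give a share. Replicate 2 had a peak within the gene at 8430 bp (4.47), and none of these 3 peaks in the gene recurred. The gene body therefore held no consensus region.

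Of the inhibitor genes, Timp2 had a consensus region and Timp3 had none. Timp2, whose product inhibits many metalloproteinases and takes part in the activation of MMP2, had 1 region upstream of the gene on chromosome 11 (118363143 to 118363506). Its summit lay at −7938 bp, where the fold was 5.07 for replicate 1 and 4.35 for replicate 2, on 19 and 12 fragments and with summits 248 bp apart. In the gene body each library had a peak that the other lacked, at 43189 bp from the TSS in replicate 1 (fold 3.99) and at 6520 bp in replicate 2 (5.16). The Timp2 body also holds the gene Cep295nl, which was the nearest gene of both peaks. Timp3, whose product binds to the matrix, lies on the opposite strand within Syn3 and had no peak in its body in either library. The closest consensus region was 342400 bp from its TSS. Its nearest peaks, at −126175 bp in replicate 1 (fold 5.84) and 95563 bp in replicate 2 (3.68), did not recur.

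**Figure D3:**
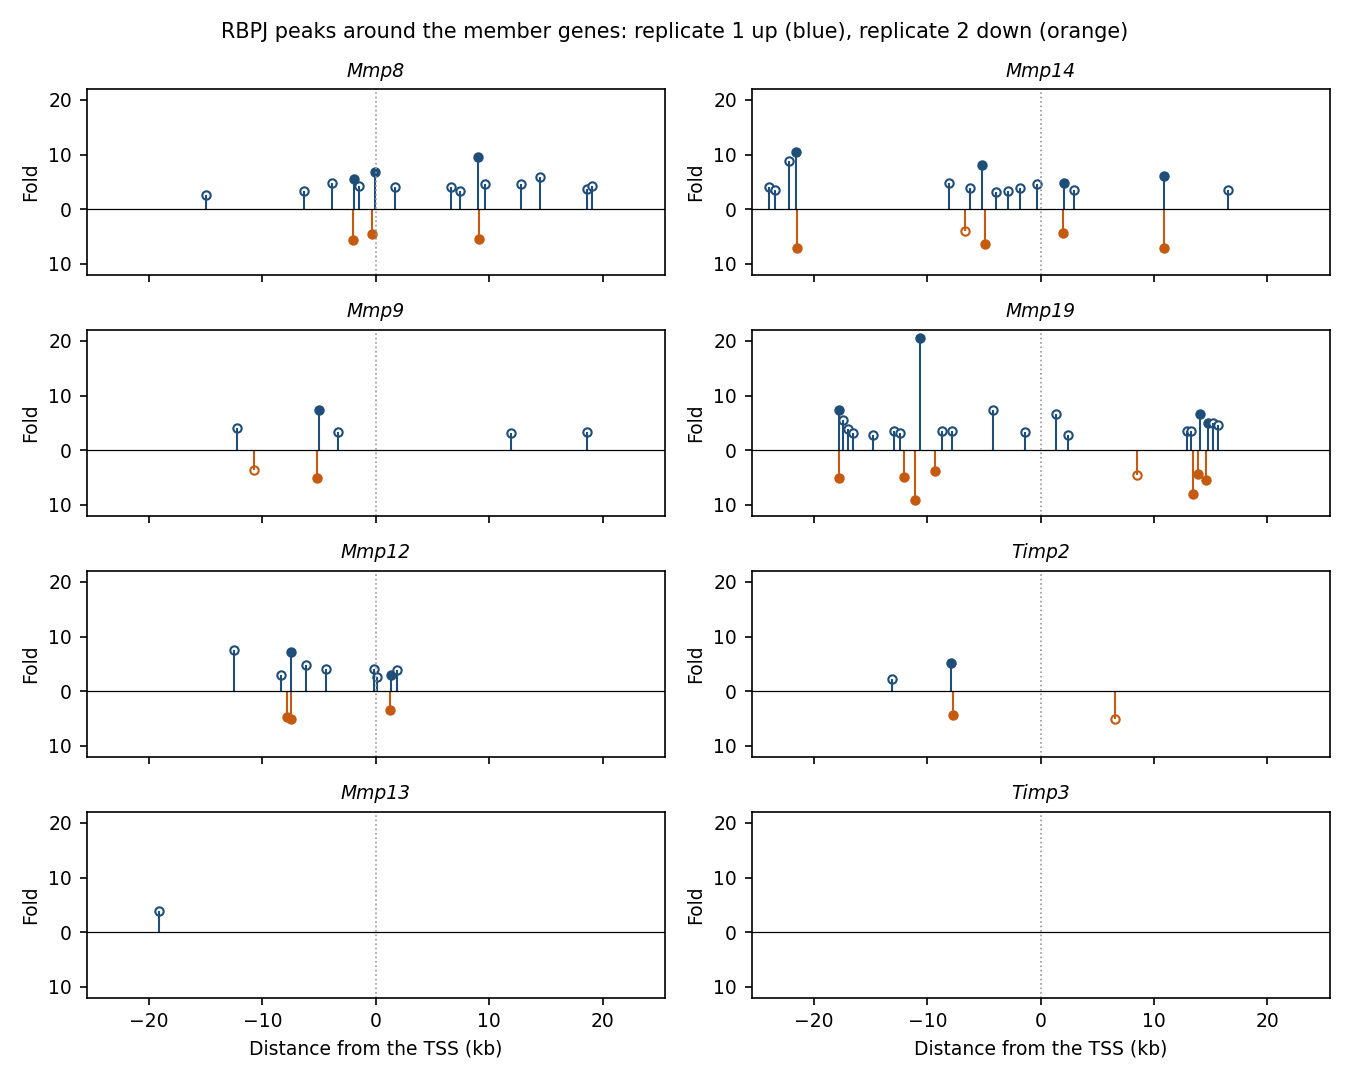
Fold enrichment of RBPJ peaks (vertical axis, replicate 1 upward in blue and replicate 2 downward in orange) against distance from the most upstream basic TSS of each member gene in kb (horizontal axis, within 25 kb, positive in the direction of transcription), including peaks nearest to other genes. Filled points overlap a peak of the other library, and the panels show 15 and 3 peaks around Mmp8, 20 and 8 around Mmp19, 1 and 0 around Mmp13 and none around Timp3.

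The 11 regions were set beside all consensus regions. Their fold ran from 2.92 to 20.6 in replicate 1 (median 6.79) and from 3.35 to 9.04 in replicate 2 (median 5.02), where all consensus regions had medians of 6.34 and 5.02. The lower fold was at or above the median of all regions in 7 of 11. In replicate 1, 8 of 11 had the higher fold, as did 72.2% of all regions. Summits lay from 1 to 503 bp apart (median 127 bp, 94 bp for all regions). By position, 10 of 11 summits lay more than 1 kb from a TSS of their gene, beside 69.2% of all regions that lay more than 1 kb from the nearest TSS. Upstream of the nearest basic TSS of their gene lay 7 summits, that of Mmp9 within the longer transcript included, and 4 lay downstream.

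By gene, the order of the strongest region in lower fold was Mmp19 (9.04), Mmp14 (6.09), Mmp8 (5.58), Mmp9 and Mmp12 (5.02 each) and Timp2 (4.35). Among all genes with a region, these stood at percentiles 87.4, 55.7, 43.8, 32.7 and 19.6. When summits had to lie within 100 bp, the strongest Mmp19 region was lost, and the remaining one left Mmp19 at 5.02, below Mmp14 (6.09) and Mmp8 (5.58). The fragment intervals of neighboring genes in this order overlapped in replicate 2, Mmp19 (17.0 to 38.1) and Mmp14 (12.2 to 30.9) included. In replicate 1 the interval of Mmp19 lay above those of the other 10 regions, and those of neighboring genes further down the order overlapped. These intervals cover counting error only.

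Recurrence between the libraries was close to that of the whole lists. Replicate 1 had 49 peaks at the 8 genes, of which 11 (22.4%) overlapped a peak of replicate 2, beside 26.0% of all its peaks. Replicate 2 had 18, of which 14 (77.8%) overlapped a peak of replicate 1, beside 66.3%. The 38 peaks found in replicate 1 alone had a median fold of 3.81, from 2.28 to 7.61, whereas the 11 shared ones had a median of 6.79. Over all replicate 1 peaks these medians were 3.83 and 6.09. The 4 peaks of replicate 2 alone were 1 each at Mmp9, Mmp19, Timp2 and Timp3, with folds of 3.68 to 5.16.

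Motif content was examined on both strands within 50 bp of the summits and again within 100 bp. The RBPJ core TGGGAA occurred in 1 of 11 regions, the Mmp14 region in intron 9, at either distance, beside 9.97% of all consensus regions within 50 bp and 18.8% within 100 bp. The longer form CGTGGGAA occurred in none of the 11 (0.283% and 0.581% of all regions), nor did TGTGGGAA (0.860% and 1.69%). Both contain the core.

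The PU.1-type sequence GAGGAA occurred in 3 of 11 within 50 bp, namely at Mmp9, in intron 1 of Mmp12 and at the last exon of Mmp8, beside 17.0%, and in 4 within 100 bp, beside 29.3%. The RUNX-type sequence TGTGGT occurred in 3 (Mmp8 at its last exon, Mmp14 in intron 1 with 2 copies, and Timp2), beside 10.1%, and in 4 within 100 bp, beside 18.5%. For the C/EBP-type sequence TTGCNNAA the 2 regions were the Mmp8 promoter and that upstream of Mmp12, beside 7.88%, and 3 regions held it within 100 bp, beside 14.3%. The STAT-type TTCNNNGAA occurred in 1 at either distance (Mmp12 in intron 1), beside 3.90% and 7.38%. No region held the other 5 motifs at either distance. Their shares of all regions were 5.16% and 9.30% for the AP-1 sequence TGANTCA, 2.58% and 4.88% for the E-box CACGTG, and 6.94% and 13.3% for the nuclear receptor sequence AGGTCA. For an NF-kB sequence they were 0.169% and 0.369%, and for an IRF sequence 1.61% and 3.35%. With 11 regions, these counts are descriptions, and the absence of a match says only that the letters are not in the window. GC content around the 11 summits ran from 34.7% to 60.4%, with the same median as all regions, 46.5%.

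The rest of the family was examined from a list of 19 other metalloproteinase and TIMP genes, of which 18 are protein-coding in the annotation (Mmp1a is not). None of the 18 had a consensus region within 1 kb of a TSS, beside 33.7% of all protein-coding genes, and 3 of 18 were nearest to a region, beside 40.5%. These were Mmp27, which shares with Mmp8 the region at the end of that gene, Mmp10 with the region described above, and Mmp24, which encodes a membrane-type enzyme, with a summit at 4773 bp (fold 4.57 and 3.92). In replicate 1 alone, Mmp27 was the 1 gene of the 18 with a promoter peak, beside 46.1% of all protein-coding genes. The gelatinase gene Mmp2 had a peak in its body in replicate 1 alone (fold 5.07). No peak of either library was assigned to Timp1.

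Partners of the family, which process, recruit or restrain matrix proteases or belong to the matrix and its signals, gave other values. Of the 11 such genes reported, 7 had a consensus region within 1 kb of a TSS, beside 33.7% of all protein-coding genes. Plaur, the urokinase receptor gene, had its strongest region at 555 bp (fold 18.3 in replicate 1 and 10.4 in replicate 2), and Ctsk, the gene of the collagenolytic cathepsin K, one at 308 bp (11.4 and 9.04). Furin, whose product activates proenzymes of membrane-type metalloproteinases, had 11 consensus regions, the strongest at 1168 bp (13.95 and 10.04). The sheddase gene Adam17 had 6 (10.1 and 7.36 at 3030 bp), and Adam10 had 1, at −92 bp (5.58 and 4.02). The strongest region of the urokinase gene Plau lay at −6719 bp (8.12 and 5.69), with another within 1 kb of the TSS, and that of Tgfb1 at 1714 bp (8.63 and 8.91). Reck, Bsg and Eln had no consensus region, and Adam8 had 2 in its body and none at its start. The lists were not tested against each other.

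**Figure D4:**
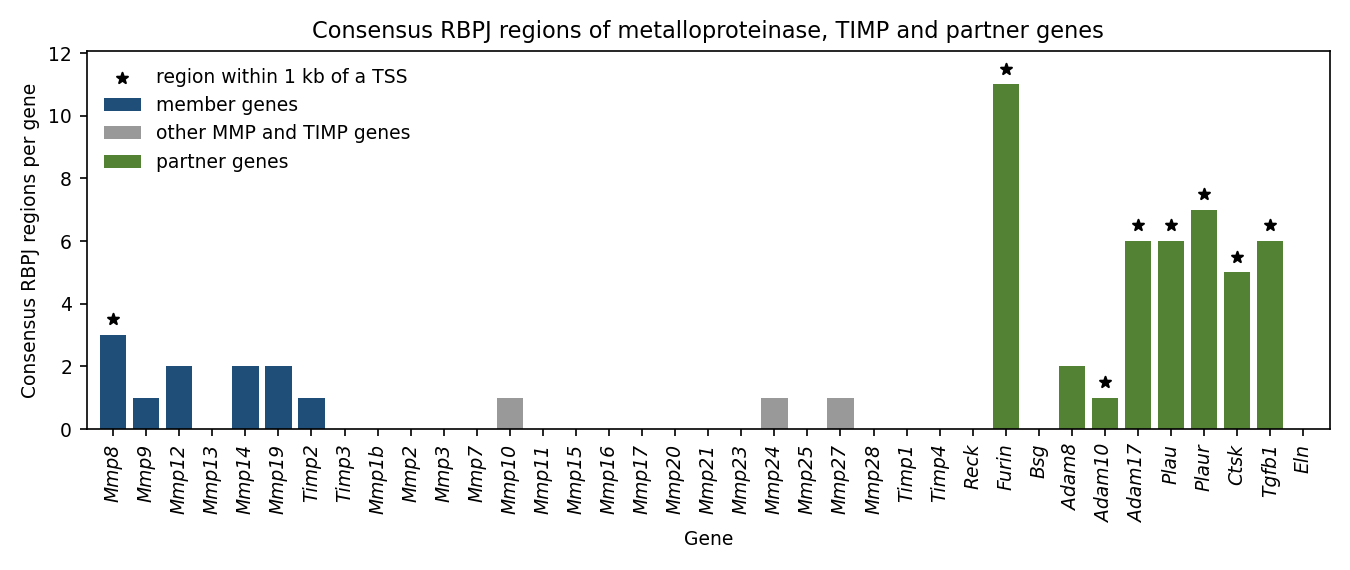
Consensus RBPJ regions per gene (vertical axis) for the 8 member genes (blue), 18 other metalloproteinase and TIMP genes (gray) and 11 partner genes (green), counted in the gene body, within 1 kb of a TSS or by nearest TSS, so that 1 region can count for more than 1 gene. Stars mark genes with a region within 1 kb of a TSS, which are Mmp8 and 7 partner genes.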

How the data were processed

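RBPJ HT-ChIPmentation was performed by the authors in WT AMs, with input controls. Per the labels and the methods of the study, the tools were bcl2fastq 2.20.0.422 with CASAVA for demultiplexing, cutadapt for adapters, Bowtie2 for alignment to mm10 and SAMtools for filtering. MACS3 called the peaks of each library against input (q of 0.05). What was deposited gives the fold enrichment (a ratio over background), −log10 p and −log10 q of each peak, its position in bp and a display score, which the authors' lists hold but which was not used.

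Here, peaks of both libraries that overlapped by at least 1 bp were merged. Fragments over a summit were solved from fold and −log10 p, as the peak caller adds 1 to both numbers of its ratio and takes p from the Poisson tail. Read totals per library, which the study lists, were not used here. Gene models were the GENCODE basic set on GRCm38, the assembly that mm10 names, and all peaks lay within its chromosome lengths. Positions count from 1, negative distances are upstream. A distance refers to the nearest TSS of the gene named. The strongest region of a gene was that with the highest lower fold. No test was run, since there is 1 condition with 2 RBPJ libraries, and shares over all genes or regions stand beside each count. Named were the 8 genes, the genes of the cluster and its neighbors, and, in the family and partner lists, genes with a promoter region, the 3 strongest and, chosen after their values were seen, some without a region. A further gene of the partner list is not reported here. Members and lists were chosen with earlier results of these data known. Python 3.11.15, numpy 2.4.6, pandas 2.3.3, SciPy 1.17.1, pysam 0.24.0 and matplotlib 3.10.9 were used, and the steps were tested on simulated data. Alternatives covered the q threshold, overlap, summit distance, promoter window, transcript set, list length and either library alone.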

Additional observations from a re-analysis of the deposited data

How the results depend on the processing

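When summits of the libraries had to lie within 100 bp, there were 14400 consensus regions in all, against 25454 in the main count. No member kept a promoter region (0 of 8, Mmp8 in the main count), beside 22.6% of all protein-coding genes. In the gene body 2 members kept a region, beside 27.5%, and by nearest TSS 4 did, beside 31.1%. The members kept 5 regions, with none left for Mmp9 or Timp2. The strongest region of Mmp19 was also lost, so that the lower fold of that gene went from 9.04 to 5.02, the value of its other region, below Mmp14 and Mmp8. With a promoter window of 3 kb, 3 members had a promoter region, Mmp12 and Mmp14 in addition to Mmp8, beside 36.2% of all genes. With either library alone, the regions assigned to the members numbered 18 (replicate 2) to 49 (replicate 1), members with a promoter peak 1 to 3, members with a peak in the gene body 6 in both, members nearest to a peak 7 to 8, peaks in the cluster 9 to 26 and other family genes with a promoter peak 0 to 1. A −log10 q of at least 5 left 5 members nearest to a region, without Timp2, beside 29.6% of all protein-coding genes. The remaining settings (overlap of 50% of the shorter peak, comprehensive transcripts, replicate 1 shortened to the length of replicate 2) kept these counts within 1.5 times. Lower folds of strongest regions were not recomputed for either library alone or for the 3 kb window. The cause of these shifts was not tested. No paired analysis was possible because no result comes from a test and the inputs have no list of their own here. In replicate 2, regions other than the strongest of Mmp14 and Mmp19 rest on 9 to 16 fragments, which limits the precision of their folds.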
